A study of Mus musculus with 14 samples.

Results

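The core genes of the circadian clock were examined in the livers of 14 male C57BL/6 mice, with 1 array for each liver. Of 10 clock genes sought, 9 were measured by a probe set assigned to that gene alone, out of 22180 genes measured in this way: Arntl, Npas2, Per1, Per3, Cry1, Cry2, Nr1d1, Nr1d2 and Dbp. The probe set of Per2 also carries a second symbol, so Per2 was not analysed here. All mice carried the Alb-Cre transgene, which drives Cre recombinase from the albumin promoter and so acts on floxed DNA mainly in hepatocytes. The KO mice had 2 floxed copies of Lmna (LMNA flx/flx), the gene of lamins A and C, the HET mice 1 (LMNA flx/+) and the WT mice none (LMNA+/+). On standard chow there were 3 KO livers (arrays H1, H2 and I1), 3 HET livers (F1, F2 and P1) and 2 WT livers (G1 and N1). On the Surwit diet with 42 g/L of carbohydrate (55% fructose and 45% sucrose) in the drinking water, called HFD here, there were 3 KO livers (C2, C3 and C4) and 3 HET livers (A2, B1 and B2). Both regimens lasted 14 weeks. KO mice were 38.9 weeks old on chow and 35.3 weeks old on HFD. HET mice were 24 to 26.4 weeks old on chow and 30 to 30.4 weeks old on HFD, and WT mice were 24.6 and 27 weeks old. Age therefore cannot be told apart from the KO genotype. The labels give neither the hour at which a liver was taken nor the time of the last meal, and food was available at all times.

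The mammalian clock is a feedback loop of transcription. BMAL1, the product of Arntl, pairs with CLOCK or its paralogue NPAS2 and switches on genes that carry E-boxes, among them the Per, Cry and Nr1d genes and Dbp. PER and CRY proteins then block the activator, while the nuclear receptors REV-ERB alpha and beta, made from Nr1d1 and Nr1d2, repress Arntl and Npas2 through response elements shared with ROR activators. Mouse liver has a strong rhythm of this kind: Arntl and Npas2 RNA peaks around the end of the night, Nr1d1, Dbp and Per3 RNA in the light phase, and Cry1 RNA late in the night, so the levels of these genes in one sample reflect the phase at which it was taken.

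The stretches near a transcription start that hold the letters of a clock element are shown first, since the members' roles in the loop are defined by such elements. Windows of 300 bases, from 250 before to 50 after each listed start, were taken from RefSeq (GRCm38.p6). They exist for all 9 measured members, in 11 windows. Both strands were searched for the E-box CACGTG, the E-prime box CACGTT, the D-boxes TTATGTAA and TTACGTAA, and the core of the ROR and REV-ERB response element, TAGGTCA or TGGGTCA. In the 5′ to 3′ lines below, capitals mark the match, and AACGTG is CACGTT read from the other strand. No matches overlapped one another.
Cry1, E-prime box and E-box, chr10:85185072-85185171, minus strand: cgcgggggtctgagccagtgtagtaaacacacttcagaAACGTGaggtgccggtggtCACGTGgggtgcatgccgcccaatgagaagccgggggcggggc
Cry2, E-prime box, chr2:92434183-92434282, minus strand: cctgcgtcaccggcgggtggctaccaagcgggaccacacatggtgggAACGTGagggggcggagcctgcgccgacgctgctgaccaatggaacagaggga
Per1, E-box, chr11:69098736-69098835, plus strand: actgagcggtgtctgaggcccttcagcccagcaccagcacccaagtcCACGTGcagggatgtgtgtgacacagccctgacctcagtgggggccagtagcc
Nr1d1, E-prime box, chr11:98775378-98775477, minus strand: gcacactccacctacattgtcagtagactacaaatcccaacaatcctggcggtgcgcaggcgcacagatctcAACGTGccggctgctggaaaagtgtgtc
Per3, the D-box TTATGTAA at both of its places, chr4:151044794-151044893, minus strand: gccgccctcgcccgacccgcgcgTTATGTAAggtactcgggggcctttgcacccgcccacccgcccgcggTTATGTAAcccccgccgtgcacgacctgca
Arntl, response element core, chr7:113207530-113207558, plus strand: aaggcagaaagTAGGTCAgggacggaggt
The Cry1 E-box begins 60 bases and its E-prime box 79 bases before the start. In Per1 the E-box begins 166 bases before the start, which is one of several listed starts and lies inside the span of the gene (chr11:69095108-69109965). The Nr1d1 E-prime box begins 28 bases and that of Cry2 166 bases before the start. In Per3 the D-box TTATGTAA, of the kind bound by DBP and its relatives, occurs at 2 places, which begin 205 and 158 bases before the start. The Arntl core begins 30 bases after a start that also lies inside the gene (chr7:113178471-113314126). Of all 32851 windows in the table, 7.15% hold CACGTG, 4.68% CACGTT, 0.938% TTATGTAA, 0.119% TTACGTAA, 2.61% TAGGTCA and 3.98% TGGGTCA. None of these letters occurs in the windows of Npas2, Nr1d2 or Dbp, whose spans are chr1:39193702-39363240, chr14:18204056-18239106 and chr7:45705100-45710203. These matches describe the letters only, since no binding was measured.

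Values below are log2 intensities after RMA, a normalization that sets all arrays to a common distribution, so a difference of 1 is 2-fold. Array medians over all probe sets lay between 2.21 and 2.3. Values of different genes come from different probes and are not set against each other. Over the 22180 genes, r between arrays was 0.989 to 0.994 within a group and 0.98 to 0.994 between groups. Lmna itself was dim, at 3.67 to 4.09 in KO and 4.25 to 4.40 in HET livers on chow and 4.43 to 4.50 in WT livers. On HFD it was 3.90 to 4.07 in KO and 4.07 to 4.30 in HET livers. Hepatocyte markers (9 genes, among them Alb and Ttr) averaged 11.87 or more on every array. On HFD 4 of them fell in KO livers against HET livers and none rose, and on chow none was called. Among markers of other cells on HFD, 1 of 9 lymphocyte markers rose, 1 of 10 macrophage and 1 of 8 endothelial markers fell, and of 10 stellate cell markers 2 rose and 2 fell. On chow 1 macrophage and 1 stellate cell marker fell. None of the 5 cholangiocyte markers was called on either diet alone. Over both diets Epcam of the cholangiocyte list (0.88 ± 0.21, adjusted p = 0.0169) and Ptprc of the lymphocyte list (0.80 ± 0.15, adjusted p = 0.00428) rose. Each was the only gene called of its list, and the T cell genes Cd3e and Cd3g did not pass (adjusted p = 0.166 and 0.194). Of 10 macrophage markers Ccr2 rose (1.06 ± 0.24, adjusted p = 0.0139) and Timd4 fell (-1.45 ± 0.16, adjusted p = 8.51e-05). Of 10 stellate cell markers 3 rose, among them Pdgfrb (0.79 ± 0.19, adjusted p = 0.0169). The other 3 called stellate cell markers fell: Reln (-0.40 ± 0.11, adjusted p = 0.0428), Lrat (-0.68 ± 0.16, adjusted p = 0.0178) and Hhip (-1.46 ± 0.35, adjusted p = 0.0193). Of 9 hepatocyte markers 2 fell, among them Cps1 (-0.37 ± 0.07, adjusted p = 0.0032). The part of these markers in the members' differences over both diets was not tested.

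The HET chow arrays did not form one group in the clock genes, and the members' comparisons that use them are given with and without the arrays concerned. F1 and F2 had the highest Arntl and Npas2 and the lowest Dbp, Per3, Cry2 and Nr1d2 of all 14 arrays. P1, of the same genotype and diet, had the lowest Arntl and Npas2 and the highest Per3 and Cry2. Over all arrays and 9 genes, the array closest to P1 was the WT array N1, with a root mean square gap of 0.25, while P1 differed from F1 by 2.25 and from F2 by 2.51. F1 and F2 differed from each other by 0.48. P1 and N1 came from the youngest mice of the study, at 24 and 24.6 weeks, F1 and F2 from mice of 26.4 weeks and G1 from one of 27 weeks. Whether age, the hour of sampling or another shared circumstance goes with these clock states was not tested.

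**Figure D1:**
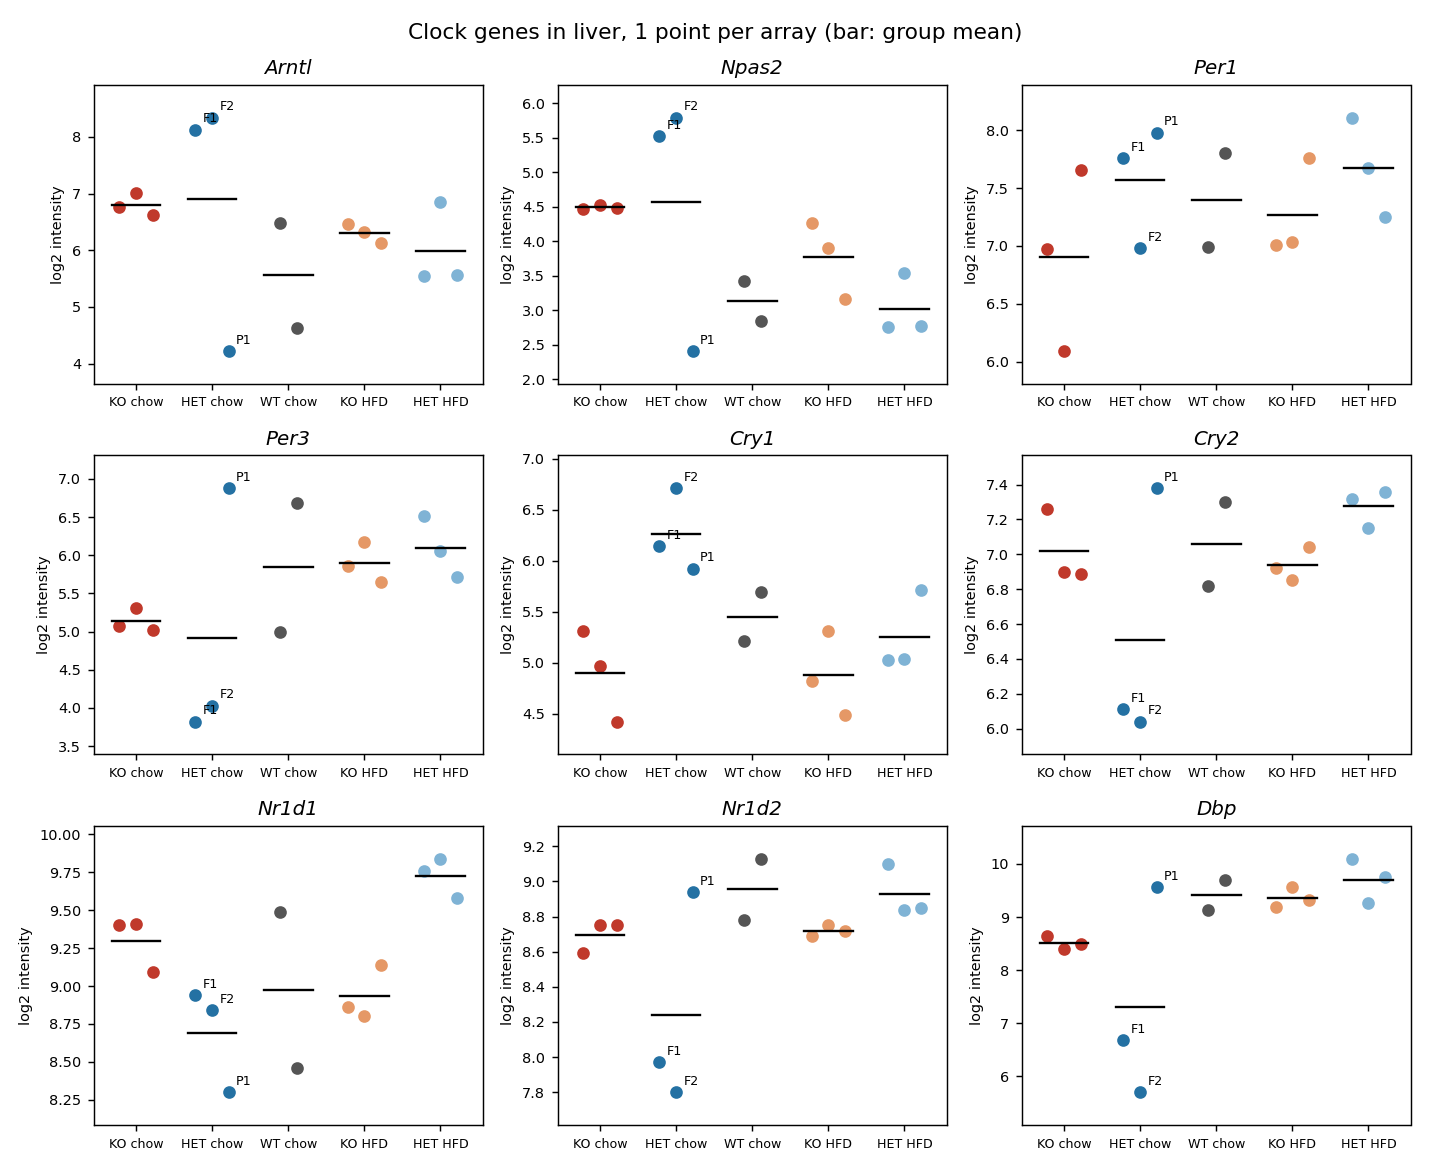
Level of each of the 9 measured clock genes on each array, as log2 intensity on the vertical axis, by genotype and diet on the horizontal axis; each point is 1 liver, the black bar is the group mean, and the 3 HET chow arrays are named. F1 and F2 lie at one end and P1 at the other end of the range for Arntl, Npas2, Per3 and Cry2, while the 3 KO chow arrays lie close together for Arntl, Npas2, Per3 and Dbp.

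Arntl encodes BMAL1, the activator without which the clock stops in mice. It read 6.76, 7.01 and 6.62 in KO livers on chow, 8.13, 8.34 and 4.22 in HET livers on chow, and 6.48 and 4.63 in WT livers. On HFD it read 6.46, 6.32 and 6.12 in KO livers and 5.54, 6.86 and 5.57 in HET livers. The span from P1 to F2 was 4.13, or 17.5-fold, inside a single genotype and diet. KO livers showed little spread on either diet, with an SD of 0.20 on chow and 0.17 on HFD (n = 3 each), against 2.32 on chow and 0.76 on HFD in HET livers (n = 3 each). With limma, KO minus HET on chow was -0.10 ± 0.85 (SE, adjusted p = 0.98), and on HFD it was 0.31 ± 0.85 (adjusted p = 0.89). Because 1 variance is pooled over groups for each gene, the wide HET chow group sets these errors also where that group is not compared.

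Npas2, the CLOCK paralogue that can stand in for CLOCK beside BMAL1, followed Arntl. It read 4.47, 4.53 and 4.48 in KO livers on chow, 5.52, 5.79 and 2.41 in HET livers on chow, and 3.42 and 2.84 in WT livers. Under HFD it read 4.26, 3.90 and 3.17 in KO livers and 2.76, 3.54 and 2.78 in HET livers. The 3 KO chow values were nearly equal and lay above both WT values. KO minus WT was 1.37 ± 0.74 (adjusted p = 0.534). It passed without P1, at an adjusted p of 0.0471 where 1.82% of all genes were called, and with only the compared groups fitted (adjusted p = 0.0395). Its lowest values are close to the median of an array, which leaves the size of such folds uncertain. Clock, the usual partner of BMAL1 and the third gene of the activator arm, read 9.64, 9.64 and 9.55 in KO livers on chow, 10.03, 10.10 and 8.89 in HET livers on chow and 9.73 and 8.62 in WT livers, so F1 and F2 were its highest and P1 and N1 its lowest arrays, as for Arntl, over a smaller range of 1.48.

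Dbp, a bZIP factor that drives D-box genes and is itself switched on by BMAL1, ran opposite to Arntl. It read 8.64, 8.40 and 8.50 in KO livers on chow, 6.68, 5.70 and 9.56 in HET livers on chow, and 9.14 and 9.70 in WT livers. On HFD it read 9.19, 9.57 and 9.32 in KO livers and 10.10, 9.26 and 9.75 in HET livers. Its range of 4.40, or 21.2-fold from F2 to A2, was the widest of the 9 members. All 3 KO chow livers lay below both WT livers, with KO minus WT at -0.91 ± 0.76 (adjusted p = 0.748). In HET livers HFD minus chow was 2.39 ± 0.68 (adjusted p = 0.219), with P1 inside the HFD range and F1 and F2 far below it.

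Per3, a member of the period family with D-boxes beside its start, moved with Dbp. It read 5.07, 5.31 and 5.02 in KO livers on chow, 3.82, 4.03 and 6.88 in HET livers on chow, and 5.0 and 6.69 in WT livers. HFD values were 5.86, 6.17 and 5.65 in KO livers and 6.51, 6.05 and 5.72 in HET livers. The KO values on HFD all lay above the KO values on chow, and HFD minus chow in KO was 0.76 ± 0.64 (adjusted p = 0.736). Per1, the period gene that also answers quickly to glucocorticoids and feeding signals, did not split F1 and F2 from P1. Its values were 6.97, 6.09 and 7.66 in KO livers on chow, 7.76, 6.98 and 7.98 in HET livers on chow and 6.99 and 7.80 in WT livers. On HFD they were 7.01, 7.03 and 7.76 in KO livers and 8.11, 7.67 and 7.25 in HET livers. All groups overlapped, and KO minus HET was -0.67 ± 0.39 on chow (adjusted p = 0.512) and -0.41 ± 0.39 on HFD (adjusted p = 0.625).

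Cry1 was the one member that passed the test in any of the 8 comparisons. The protein is a potent repressor of the BMAL1 and CLOCK pair, and its RNA read 5.31, 4.97 and 4.42 in KO livers on chow, 6.14, 6.71 and 5.92 in HET livers on chow and 5.21 and 5.69 in WT livers. No KO chow value reached the lowest HET chow value. Cry1 fell in KO livers on chow against HET livers by 1.36 ± 0.29 on the log2 scale (adjusted p = 0.0327). This call was lost with only the compared groups fitted (adjusted p = 0.0896) and on leaving out F1, F2, H2, I1 or C2 alone (adjusted p from 0.0503 to 0.147). The same contrast averaged over both diets was -0.87 ± 0.21 (adjusted p = 0.0177). On HFD the values were 4.82, 5.31 and 4.49 in KO livers and 5.02, 5.03 and 5.71 in HET livers, which overlapped, with KO minus HET at -0.38 ± 0.29 (adjusted p = 0.512). Against WT the chow difference was -0.56 ± 0.33 (adjusted p = 0.582). Markers of hepatocytes averaged 12.08 to 12.14 in KO and 12.15 to 12.21 in HET livers on chow, and in whole liver a smaller share of hepatocytes and less RNA per hepatocyte cannot be told apart. Their part in the Cry1 difference was not tested. Without F1 and F2 the Cry1 difference was -1.02 ± 0.40 on chow (adjusted p = 0.376) and -0.70 ± 0.24 over both diets (adjusted p = 0.132).

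Cry2, the second cryptochrome, read 7.26, 6.90 and 6.89 in KO livers on chow, 6.11, 6.04 and 7.38 in HET livers on chow, and 6.82 and 7.30 in WT livers. HFD levels were 6.92, 6.85 and 7.04 in KO livers and 7.32, 7.15 and 7.36 in HET livers. Every KO liver on HFD lay below every HET liver on HFD, with KO minus HET at -0.34 ± 0.28 (adjusted p = 0.557).

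Nr1d1, which encodes REV-ERB alpha, showed another order of arrays than Dbp. It read 9.40, 9.41 and 9.09 in KO livers on chow, 8.94, 8.84 and 8.30 in HET livers on chow and 9.49 and 8.46 in WT livers. On HFD it read 8.86, 8.80 and 9.14 in KO livers and 9.76, 9.84 and 9.58 in HET livers. P1 and N1 were the lowest arrays, while F1 and F2 lay between them and the KO chow livers. On chow every KO liver lay above every HET liver (0.61 ± 0.23, adjusted p = 0.258), and on HFD every KO liver lay below every HET liver (-0.80 ± 0.23, adjusted p = 0.0573). The difference between these effects was -1.41 ± 0.33 (interaction, adjusted p = 0.189). In HET livers HFD minus chow was 1.04 ± 0.23 (adjusted p = 0.119), with no overlap. Hepatocyte markers on HFD averaged 11.87 to 11.95 in KO and 12.19 to 12.24 in HET livers, and their part was not tested. The HFD contrast of KO and HET for Nr1d1 passed under several other settings. Adjusted p values were 0.0158 without either WT array, 0.0405 without P1, 0.0373 with array weights and 0.0361 without dim genes. Leaving out a WT array or P1 kept the difference at -0.80, since none of these arrays is compared there. The contrast did not pass with the mean of probe sets, a second quantile normalization or the array letter as a random block. Nor did it pass without F1 and F2, or with any other single array left out. Without P1 8.06% of all genes were called, and no such share stands beside the other settings.

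Nr1d2, the gene of REV-ERB beta, behaved like Dbp rather than like Nr1d1. It read 8.59, 8.75 and 8.75 in KO livers on chow, 7.97, 7.80 and 8.94 in HET livers on chow, and 8.78 and 9.13 in WT livers. Under HFD it read 8.69, 8.75 and 8.72 in KO livers and 9.10, 8.84 and 8.85 in HET livers. Every KO liver lay below every HET liver on HFD, at -0.22 ± 0.23 (adjusted p = 0.664).

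Dbp minus Arntl, which falls where the activator is high and its output low, puts each liver on a single axis, and its differences between arrays are read here as a description without a test. The difference was 1.88, 1.39 and 1.88 in KO livers on chow, -1.45, -2.65 and 5.35 in HET livers on chow and 2.66 and 5.07 in WT livers. On HFD it was 2.73, 3.24 and 3.20 in KO livers and 4.56, 2.39 and 4.18 in HET livers. The 2 KO groups did not overlap, at 2.73 to 3.24 on HFD against 1.39 to 1.88 on chow. HET livers on chow spanned the whole range of the study, at -2.65 to 5.35. Arrays that share the letter of their name within a group differed by 0.04 to 1.79 in this value (6 pairs, median 0.50) and arrays with different letters by 0 to 7.99 (7 pairs, median 2.17). P1 differed from F1 by 6.8 and from F2 by 7.99. Among KO livers on chow the gap was 0.50 with the same letter, and 0 and 0.49 with different letters. Among HET livers on HFD it was 1.79 with the same letter, and 0.38 and 2.17 with different letters. C2 to C4 give same-letter pairs only, and pairs that share an array are not independent. What the letters stand for is not stated in the labels. Such letters do not cross groups, so letter and group cannot be told apart for C2 to C4.

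A principal component analysis of the 9 members gave a first component with 78.4% of their variance. Its weights were 0.50 for Arntl and 0.46 for Npas2 and, with the other sign, -0.54 for Dbp, -0.40 for Per3, -0.18 for Cry2 and -0.16 for Nr1d2, whereas Nr1d1 had 0.00. F2 and F1 scored 4.70 and 3.83 on it, and P1, N1 and A2 scored -2.78, -2.39 and -2.23. The other 9 arrays lay between -1.50 and 1.06. The second component held 10.8% and was led by Cry1 at -0.63 and Nr1d1 at 0.43. On it KO livers on chow scored 0.46 to 0.89 and HET livers on chow, F1, F2 and P1 alike, scored -1.68 to -0.61. On HFD KO livers scored 0.17 to 0.49 and HET livers -0.05 to 0.73, which overlapped. The WT livers scored 0.52 (G1) and -1.13 (N1), so KO and HET livers were apart on this component on chow only.

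**Figure D2:**
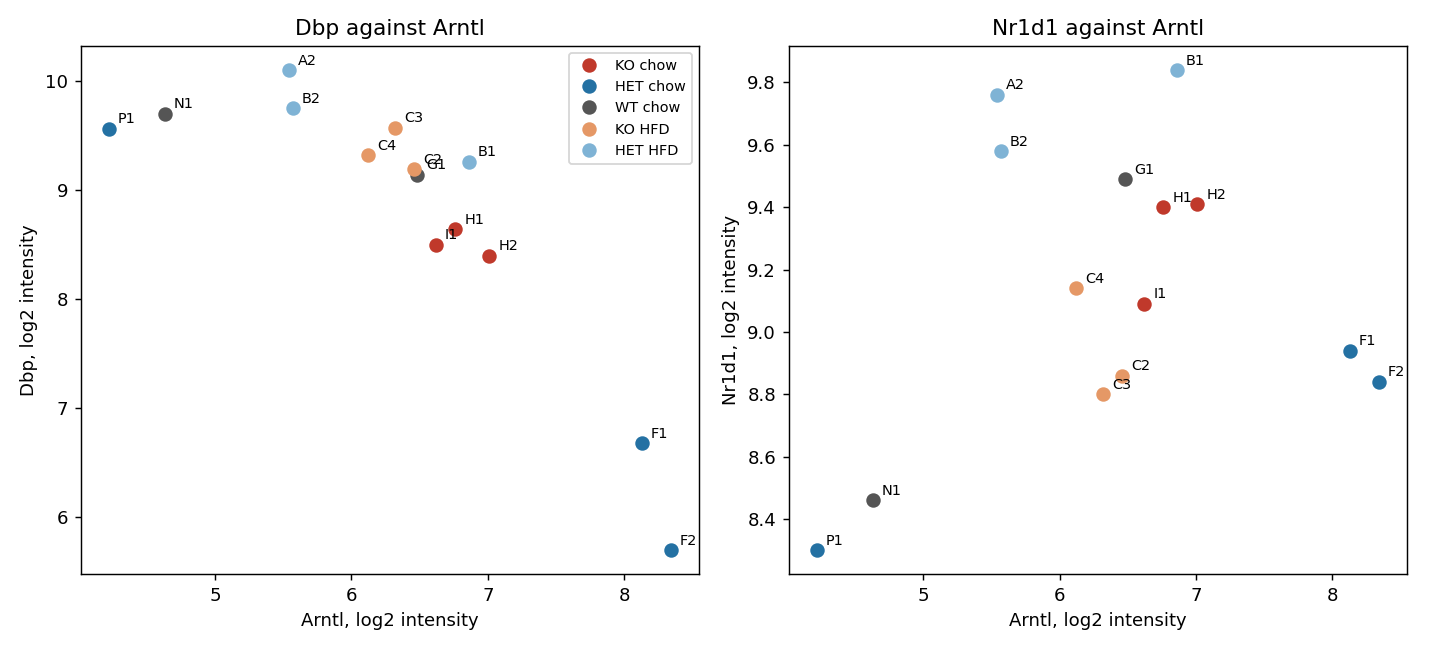
Dbp (left) and Nr1d1 (right) against Arntl, log2 intensity on both axes, with 1 named point per liver coloured by group. Dbp falls with Arntl from P1 and N1 at the upper left to F1 and F2 at the lower right, whereas Nr1d1 is lowest at P1 and N1, highest in HET livers on HFD and intermediate at F1 and F2.

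Over the 14 arrays Arntl correlated with Npas2 at r = 0.92 (rho 0.92), which was 0.88 without P1 and F2, the arrays farthest from its median, and at 0.84 without F1 and F2. The permutation p was 1e-05 for r, the smallest that 100000 permutations can give, and 3e-05 for rho, or 0.00018 and 0.0009 after adjustment over all 36 pairs of members. Arrays were permuted freely across groups, so these p values do not separate differences between groups from spread within them. Arntl and Dbp correlated at -0.83 (rho -0.89; permutation p 0.00012 and 8e-05, adjusted p 0.000425 and 0.00096), at -0.86 without P1 and F2 and at -0.69 without F1 and F2. Dbp and Nr1d2 correlated at 0.95 (rho 0.75; permutation p 2e-05 and 0.0023, adjusted p 0.00018 and 0.0092) and at 0.71 without F1 and F2. Of the 36 pairs 15 had an adjusted permutation p of r under 0.05, and these 15 all join Arntl, Npas2, Per3, Cry2, Nr1d2 and Dbp. By rho Per1 also passed, with Arntl at -0.65, Npas2 at -0.66 and Dbp at 0.60 (adjusted permutation p 0.0288, 0.027 and 0.0492). Nr1d1 and Arntl had an r of 0.26 (rho 0.20; permutation p 0.373 and 0.483, adjusted p 0.488 and 0.756), 0.14 without P1 and F2, and 0.60 without F1 and F2. After the group means were taken out, r was 0.95 for Arntl with Npas2, -0.94 with Dbp, -0.95 with Cry2, -0.94 with Nr1d2, -0.91 with Per3 and 0.74 with Nr1d1. F1, F2 and P1 carry much of that residual spread.

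Arntl, Dbp and Per3 were among the genes that varied most within groups, Npas2 varied about as widely, and the other members less so. Among 9857 genes with a mean of at least 4, the SD within groups had a median of 0.19. It was 1.24 for Arntl (rank 10 from the top), 0.98 for Dbp (rank 32), 0.93 for Per3 (rank 42) and 0.56 for Per1 (rank 253). Npas2, whose mean was under 4, had an SD of 0.96. Cry1 had 0.41 (rank 739), Cry2 0.39 (rank 850), Nr1d1 0.32 (rank 1552) and Nr1d2 0.31 (rank 1653).

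Read by comparison, 1 of 9 members was called for KO against HET on chow, and 1.92% of all genes were called there. For KO against HET over both diets 1 of 9 was called and 9.43% of all genes. No member was called for KO against HET on HFD with limma, where 7.56% of all genes were called, nor for KO against WT on chow, where 1.65% were. At an unadjusted p under 0.05 these had 1 of 9 members beside 20.5% of all genes and 0 of 9 beside 11.8%. HET against WT gave 0 called members and 0% of all genes, with 3 of 9 members and 4.3% of all genes at an unadjusted p under 0.05. The diet effect in HET livers gave 0 called members and 0.198% of all genes, with 6 of 9 members and 10.2% of all genes at an unadjusted p under 0.05. In KO livers it gave 0 called members and 0.316% of all genes, with 0 of 9 members and 11.1% of all genes at that unadjusted level. The interaction gave 0 called members and 0.0361% of all genes, with 2 of 9 members and 9.86% of all genes at that level. The median difference over the 9 members was 0.69 for HFD against chow in HET livers and -0.03 in KO livers, beside 0.002 and -0.002 over all genes. It was 0.22 for KO against HET on chow and -0.34 on HFD, beside -0.009 and -0.024 over all genes.

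Which HET chow arrays enter decides which members are called. The arrays left out here stand out in these same clock genes, so the adjusted p values without them are no independent test. They show how far each call depends on those arrays. Without F1 and F2, when P1 alone stands for HET on chow and is assumed to vary as the other groups do, KO minus HET on chow called Npas2 only, at 2.09 ± 0.40 (adjusted p = 0.0485), while 0.645% of all genes were called. Over both diets it then called Npas2 at 1.42 ± 0.25 (adjusted p = 0.0069), Arntl at 1.44 ± 0.38 (adjusted p = 0.0474) and Dbp at -0.70 ± 0.18 (adjusted p = 0.0486), beside 6.42% of all genes. Without P1, KO minus HET on chow called Dbp at 2.32 ± 0.29 (adjusted p = 0.0018), Cry2 at 0.94 ± 0.16 (adjusted p = 0.0117), Nr1d2 at 0.81 ± 0.14 (adjusted p = 0.0102) and Cry1 at -1.53 ± 0.32 (adjusted p = 0.0287), beside 2.34% of all genes. Dbp thus lay above HET in KO livers with one set of HET arrays and below with the other. Over both diets without P1, Dbp was 0.99 ± 0.20 (adjusted p = 0.0082), where 9.17% of all genes were called, and on HFD without P1 Nr1d1 passed as given above, where 8.06% of all genes were called.

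The same held for the other comparisons with these arrays. HET minus WT without P1 called Dbp at -3.23 ± 0.32 (adjusted p = 0.00796), Npas2 at 2.53 ± 0.34 and Nr1d2 at -1.07 ± 0.15 (adjusted p = 0.029 each), beside 0.0451% of all genes, and without F1 and F2 no member had an unadjusted p under 0.05. HFD minus chow in HET without P1 called 5 members, Dbp at 3.51 ± 0.29, Nr1d2 at 1.05 ± 0.14, Cry2 at 1.20 ± 0.16, Per3 at 2.17 ± 0.38 and Npas2 at -2.63 ± 0.31, with adjusted p values between 0.000198 and 0.0256, beside 0.739% of all genes. Without F1 and F2, Dbp was 0.14 ± 0.30 there (adjusted p = 0.951) and Npas2 0.62 ± 0.40 (adjusted p = 0.755). Cry1 and Nr1d1 kept their signs in KO minus HET on chow, HET minus WT and HFD minus chow in HET under both omissions. The interaction without P1 called Dbp at -2.67 ± 0.39 (adjusted p = 0.0251) and Cry2 at -1.27 ± 0.22 (adjusted p = 0.0441), beside 0.194% of all genes. With F1 and F2 left out these were 0.71 ± 0.37 (adjusted p = 0.723) and 0.03 ± 0.26 (adjusted p = 0.99).

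**Figure D3:**
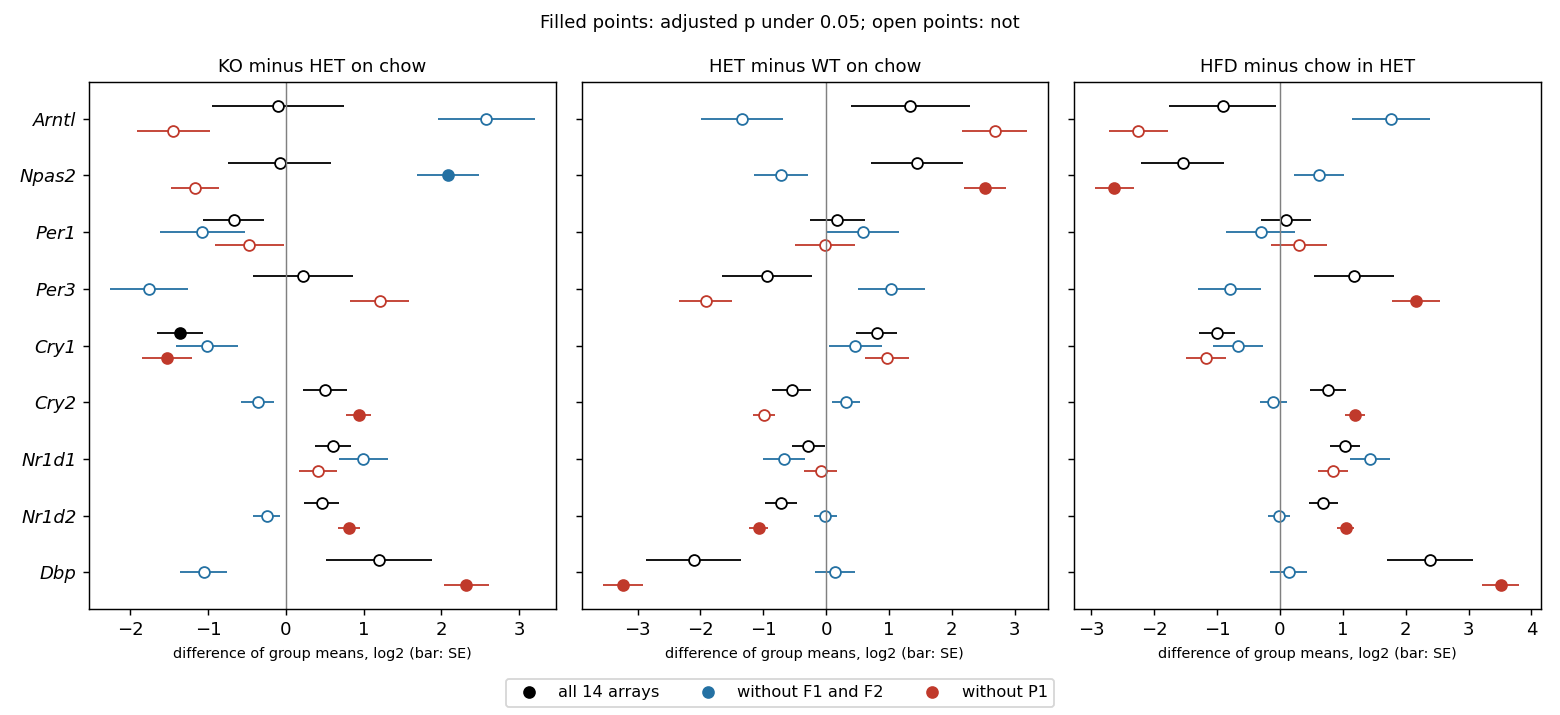
Differences of group means in log2 units with SE bars for the 9 members, in the 3 comparisons that use HET livers on chow, from all 14 arrays (black), without F1 and F2 (blue) and without P1 (red); filled points passed an adjusted p of 0.05. The blue and red points lie on opposite sides of 0 for Arntl, Npas2 and Per3 in all 3 panels, and on the same side for Cry1 and Nr1d1.

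Other genes of the clock were read from a list of 17 partners and relatives, of which 14 were measured. Timeless, a replication fork protein that can also bind clock proteins, rose in KO livers on HFD, with 3.72, 4.31 and 3.91 in KO and 3.05, 3.07 and 3.00 in HET livers (0.94 ± 0.23, adjusted p = 0.0264). Over both diets it was 0.59 ± 0.16 (adjusted p = 0.0395), a call lost without F1 and F2 (adjusted p = 0.137). Nfil3, the repressor that competes with DBP for D-boxes, fell over both diets (-0.83 ± 0.17, adjusted p = 0.00791). It read 5.51, 5.30 and 5.65 in KO and 6.51, 6.89 and 5.87 in HET livers on chow, and 5.07, 5.76 and 5.21 in KO and 5.82, 6.11 and 6.30 in HET livers on HFD, so KO lay below HET on both diets with no overlap. Its adjusted p was 0.0774 without F1 and F2. On HFD 1 of 14 partners was thus called beside 7.56% of all genes, and over both diets 2 of 14 beside 9.43%. No partner was called in the other 6 comparisons, where 0% to 1.92% of all genes were. In these 6, 1 to 3 of the 14 had an unadjusted p under 0.05, beside 4.3% to 13.4% of all genes.

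Among 11 measured outputs of the clock none was called in any of the 8 comparisons with limma, where 0 to 5 had an unadjusted p under 0.05. The count of 5 of 11 was for HFD against chow in HET livers, where 10.2% of all genes had such a p, and the other counts were 0 to 3, where that share was 4.3% to 22.2%. Elovl3, a fatty acid elongase, and Upp2, a uridine phosphorylase, fell in KO against HET livers on HFD under either omission, at -1.55 ± 0.38 and -0.91 ± 0.14 without F1 and F2 (adjusted p = 0.0309 and 0.00412), when 7.44% of all genes were called. Several split the arrays widely. Wee1, a cell cycle kinase under E-box control, read 5.92, 6.44 and 6.55 in KO chow livers, against 3.66, 3.56 and 7.46 in the HET chow livers F1, F2 and P1. Usp2, a deubiquitinase, read 7.49, 7.25 and 7.77 in KO and 5.65, 5.55 and 9.02 in HET livers on chow. In both genes F1 and F2 lay below and P1 above all KO chow livers. Rgs16, a regulator of G protein signalling that follows both the clock and feeding, had the widest range of all list genes, 7.0 on the log2 scale. It read 7.61, 8.32 and 10.23 in KO livers on chow, 3.72, 3.71 and 7.63 in HET livers on chow and 4.17 and 8.51 in WT livers. On HFD Rgs16 was high in both genotypes, at 8.84, 9.86 and 10.05 in KO and 10.71, 10.36 and 9.41 in HET livers. HFD minus chow in HET livers was 5.14 ± 1.14 for Rgs16 (adjusted p = 0.113), 6.45 ± 1.02 without P1 (adjusted p = 0.0168) and 2.53 ± 1.36 without F1 and F2 (adjusted p = 0.685). Without P1, Wee1 and Rgs16 were called for KO minus HET on chow, at 2.70 ± 0.50 (adjusted p = 0.0175) and 5.01 ± 1.02 (adjusted p = 0.027). With F1 and F2 left out, Wee1 was on the other side of 0, at -1.15 ± 0.66 (adjusted p = 0.629), and Rgs16 was 1.09 ± 1.36 (adjusted p = 0.892).

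**Figure D4:**
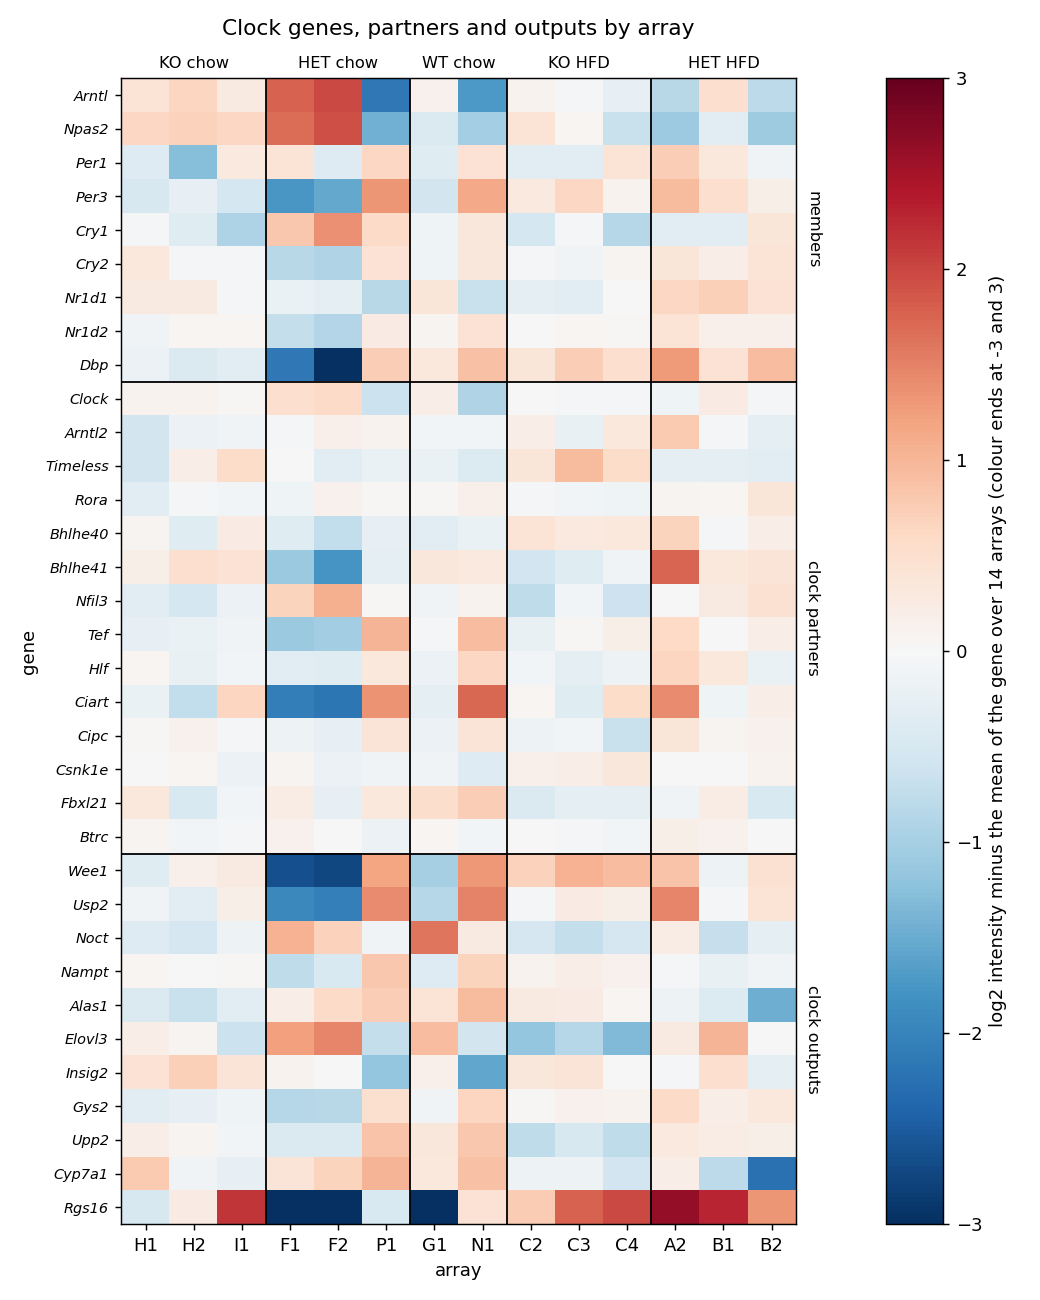
Deviation of each gene from its own mean over the 14 arrays in log2 units (red above, blue below, colours ending at -3 and 3), for the 9 members, 14 partners and 11 outputs in rows and the 14 arrays in columns by group. F1 and F2 are red for Arntl and Npas2 and blue for Dbp, Per3, Ciart, Wee1, Usp2 and Rgs16, P1 and N1 have the other colours in all of these but Rgs16, and the KO columns are paler.

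Cues that can reset or mimic a clock phase in liver were read in the same way. Over all genes 1.92% were called for KO against HET on chow, 7.56% on HFD and 9.43% over both diets. For HFD against chow in HET livers 0.198% were called. Of 7 measured genes of body temperature, such as Cirbp and the heat shock genes, 0 were called in all 8 comparisons with limma. An unadjusted p under 0.05 was seen for 0 to 2 of these 7, beside 4.3% to 22.2% of all genes. Of 7 glucocorticoid targets only Tat, an enzyme of tyrosine breakdown, was called, over both diets (-0.35 ± 0.09, adjusted p = 0.0312). Of 9 fasting genes measured, Fgf21, a hormone released by liver, rose for KO against HET on chow (1.98 ± 0.45, adjusted p = 0.0424) and over both diets (1.45 ± 0.32, adjusted p = 0.0116), and for HFD against chow in HET livers (2.59 ± 0.45, adjusted p = 0.0402). Pdk4, the kinase that shuts off pyruvate dehydrogenase, rose for KO against HET on HFD (1.47 ± 0.37, adjusted p = 0.0284) and over both diets (1.22 ± 0.26, adjusted p = 0.00955). Of 6 feeding genes measured, Srebf1, the regulator of lipid synthesis, fell over both diets (-0.76 ± 0.19, adjusted p = 0.0215). All 3 calls of Fgf21 and the calls of Tat and Srebf1 were lost without F1 and F2, and those of Pdk4 were not. P1 alone then stands for HET on chow. Fgf21 was then 2.11 for KO against HET on chow, 1.51 over both diets and 2.72 for HFD against chow in HET livers. Over both diets Tat was then -0.28 and Srebf1 -0.83. Fgf21 read 2.65, 3.02 and 2.64 in F1, F2 and P1. Without P1 Fgf21 passed over both diets (adjusted p = 0.0251). It did not pass without P1 on chow (adjusted p = 0.086) or for HFD in HET livers (adjusted p = 0.0524). After group means were taken out, r with Arntl was 0.92 for G6pc and Ppargc1a, 0.82 for Pdk4 and 0.48 for Igfbp1. For the other fasting genes it was -0.76 (Angptl4), -0.57 (Cpt1a), -0.49 (Pck1), -0.14 (Irs2) and -0.04 (Fgf21). It was -0.59 to 0.66 for glucocorticoid targets, -0.61 to 0.69 for feeding genes and -0.29 to 0.32 for body temperature. G6pc read 10.73, 11.02 and 9.76 in F1, F2 and P1. The part of feeding was not tested.

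Non-members whose levels were most like those of Arntl were found among 9419 genes with a mean of at least 4 and a standard symbol, with Pearson's r over the 14 arrays as a description. The 8 highest were Leo1 at 0.946, Mettl16 at 0.942, Stra6l at 0.936, Clock at 0.934, Caprin1 at 0.932, Chka at 0.925, Denn2b at 0.916 and Smarcb1 at 0.903. The 8 lowest were Tef at -0.974, Mapk14 at -0.956, Usp2 at -0.929, Ciart and Gys2 at -0.921, Nr1h4 at -0.916 and Aptx and Marveld1 at -0.914. Tef, a relative of Dbp that binds D-boxes, read 5.93, 5.98 and 6.08 in KO livers on chow, 5.06, 5.14 and 7.19 in HET livers on chow and 6.14 and 7.10 in WT livers. Without F1 and F2, r of these 16 genes with Arntl was 0.841 to 0.980 at the high end and -0.965 to -0.839 at the low end. Only 9 of the 9419 genes reached 0.9 and 9 reached -0.9.

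With deviations from group means in place of levels, 46 genes reached 0.9 and 49 reached -0.9. The 8 highest were Denn2b at 0.980, Asap2 at 0.969, Tab2 at 0.968, Ddc at 0.961, Mettl16 at 0.955, and Senp7, Fbxo11 and Chka at 0.953. The 8 lowest were Map2k3 at -0.982, Tef at -0.975, Wee1 at -0.974, Gys2 at -0.973, Marveld1 at -0.968, Aptx at -0.967, Usp2 at -0.963 and Gpd1l at -0.950. Mettl16, Chka, Denn2b, Tef, Usp2, Gys2, Aptx and Marveld1 are named by both measures. Fbxo11 had an r of levels of only 0.085 without F1 and F2.

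Adding Dbp minus Arntl of each array as a linear term to the fit changed how many other genes were called. With the term 459 genes were called for KO against HET on chow, against 425 without it, and 367 of them were shared. On HFD the counts were 1777 with and 1677 without it (1582 shared), and over both diets 2335 and 2090 (2044 shared). For KO against WT they were 337 and 367 (275 shared). The diet effect gave 128 with and 70 without it in KO livers (68 shared), and 38 and 44 in HET livers (17 shared). The interaction gave 7 and 8 (5 shared), and HET against WT 0 with and 0 without, where 954 genes had an unadjusted p under 0.05 without the term. The term was computed from Dbp and Arntl themselves, which were left out of these counts with the other members. Its SD was 4.31 in HET livers on chow, 1.70 in WT livers and 1.16 in HET livers on HFD. In KO livers it was 0.29 on chow and 0.28 on HFD. With group means in the fit, the slope therefore rests largely on F1, F2 and P1.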

How the data were processed

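Each probe set has a log2 intensity on each array, which the authors made with RMA and deposited, per the submitters' processing notes. RMA corrects background, normalizes quantiles and summarizes probes. The notes also name limma, and no versions are given. RNA came from 400 ng of total RNA per liver, 1 array per mouse, per the labels. No label or note mentions a batch adjustment, and quantile normalization can hide shifts shared by most genes. The number of arrays limits the precision.

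Of 41345 probe sets, 23521 carried 1 symbol and gave 22180 genes, the brightest probe set being kept where a gene had several. There was no filter on level. Members were matched by symbol. Tests used limma (version 3.58.1, R version 4.3.3), as 1 mean per group over all 14 arrays, with residual degrees of freedom of 9, prior degrees of freedom of 3.83 and Benjamini-Hochberg adjustment over all genes within each of 8 comparisons. Called means an adjusted p under 0.05. Of 61 entries in the lists of clock partners, outputs, body temperature, glucocorticoid, fasting and feeding genes, 54 were measured. The rule named all members, called list genes, and the 8 genes most like and least like Arntl. Wee1, Usp2, Rgs16, Clock and Tef were given array values after these were seen. The members and lists were chosen with earlier results of these data known. The fit was tested on simulated data. Correlations, promoter windows (RefSeq, GRCm38.p6) and principal components were computed in Python 3.11.15 with numpy 2.4.6. Alternatives were array weights, a trended robust prior, a dim filter, the mean of probe sets, the groups compared alone, a second quantile normalization, the array letter as a random block, age as a linear term, each array left out, and F1 and F2 left out together.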

Additional observations from a re-analysis of the deposited data

Results flagged for a closer look

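Among 63 members and list genes, 3 had KO and HET livers fully apart in opposite directions on chow and on HFD. Only these 63 were checked, so no share over all genes stands beside the count, and it is a description only. The test of the difference between the diets, the interaction in limma, passed for none of the 3 over all 14 arrays. For Nr1d1 it was -1.408 ± 0.33 (adjusted p = 0.189), with 9.09 to 9.41 in KO and 8.30 to 8.94 in HET livers on chow and 8.80 to 9.14 in KO and 9.58 to 9.84 in HET livers on HFD. For Bhlhe41, the repressor DEC2 and a target of BMAL1, it was -2.582 ± 0.54 (adjusted p = 0.132). Bhlhe41 read 4.98, 5.31 and 5.25 in KO and 3.71, 3.05 and 4.55 in HET livers on chow, and 4.24, 4.44 and 4.72 in KO and 6.57, 5.12 and 5.21 in HET livers on HFD. For Alas1, the first enzyme of haem synthesis, it was 1.852 ± 0.39 (adjusted p = 0.14). Alas1 read 10.44, 10.20 and 10.56 in KO and 11.07, 11.46 and 11.61 in HET livers on chow, and 11.15, 11.13 and 10.94 in KO and 10.72, 10.47 and 9.42 in HET livers on HFD. Without P1 the interaction was -1.21 ± 0.32 for Nr1d1 (adjusted p = 0.149), -2.97 ± 0.48 for Bhlhe41 (adjusted p = 0.0345) and 1.74 ± 0.42 for Alas1 (adjusted p = 0.12). Without F1 and F2 it was -1.80 ± 0.39 for Nr1d1 (adjusted p = 0.251), -1.80 ± 0.55 for Bhlhe41 (adjusted p = 0.479) and 2.08 ± 0.49 for Alas1 (adjusted p = 0.293). Groups of 2 and 3 arrays are too small for a test of single outlying arrays.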

How the results depend on the processing

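Over 72 results of members in single comparisons and 23 alternatives, 1648 values were computed. Of these 1587 stayed on the same side of the threshold with no called value turning, 44 passed where the result had not, 10 no longer passed and 7 turned sign with a call. No paired analysis was possible because the array numbers follow letters that differ between groups, so equal numbers mark no shared animal or batch. The letter as a random block had a correlation of 0.051, and 9857 genes passed the dim filter.

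With each array left out in turn, the count of members called ranged from 0 to 4 for KO against HET on chow, 0 to 1 for KO against WT, 0 to 3 for HET against WT, 0 to 1 for KO against HET on HFD, 1 to 2 over both diets, 0 to 5 for HFD in HET livers, 0 to 0 for HFD in KO livers and 0 to 2 for the interaction. The chow call of Cry1 was lost without F1 (adjusted p = 0.0762), F2 (0.147), H2 (0.0943), I1 (0.144) or C2 (0.0503). For HFD minus chow in HET livers Nr1d1 was called without either WT array (adjusted p = 0.0413). The upper ends of the other ranges come from leaving out P1, except that Nr1d1 on HFD was also called without G1 or N1. Without P1, 2.34% of all genes were called for KO against HET on chow, 1.82% against WT and 0.0451% for HET against WT. The shares were 8.06% for KO against HET on HFD, 9.17% over both diets, 0.739% for HFD in HET livers and 0.194% for the interaction. For the other arrays left out singly no such share stands beside the counts. Leaving out F1 and F2 together gave 3 calls over both diets against 1, turned Dbp to -0.70 there and Npas2 to 2.09 for KO against HET on chow.

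With only the compared groups fitted, the count was 0 for KO against HET on chow, 1 for KO against WT and 1 for KO against HET on HFD. No share over all genes stands beside the counts of this paragraph, so they describe the members only. Array weights, a trended robust prior and the dim filter each gave 1 for KO against HET on HFD, in each case Nr1d1. Age as a linear term gave 3, 2 and 3 calls for KO against HET on chow, KO against WT and KO against HET on HFD, 4 over both diets, 6 for HFD in HET livers and 4 for the interaction. It turned Arntl to -15.01 against WT, -6.10 on HFD and -11.35 over both diets, and Per3 to 11.93 against WT and 4.79 on HFD. These sizes exceed the whole measured range of either gene, since age varied by at most 2.4 weeks within a group and was extrapolated to the KO ages; the term gives no usable value.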
